A study of Mus musculus with 4 samples.

Results

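Sorted wild-type macrophage dendritic progenitors, labelled MDP, were compared with sorted wild-type granulocyte monocyte progenitors, labelled GMP, on 1 Affymetrix array each. The series holds 4 arrays. Both wild-type arrays carry RNA of unstimulated, untreated cells from mice of a mixed C57BL6J/129SV background, and the other two arrays carry the same cell types from unstimulated, untreated Trib1-/- mice of that background. The labels give the cell type of the MDP arrays as macrophage dendritic cell. The sources used here do not give sort gates, ages, the number of animals behind an array or array batches. The members are the genes that could be compared: 11653 of 18193 named genes whose highest value on the 4 arrays reached 3.29, the median of the whole table, called the floor below. Values are RMA values taken as log2, a scale inferred from their range, and a difference is the MDP value minus the GMP value of the same probe set. With 1 array per group there is no spread between replicates, so no test was made, no p-value is given, and genes were counted by a fixed size of at least 2-fold. The floor counts a gene whose value is high on any 1 array, so a gene that is high in a single group passes it and must differ between groups.

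GMPs are bone marrow progenitors that feed the granulocyte and monocyte lineages, and MDPs are progenitors that give rise to monocytes, macrophages and dendritic cells. In granulocyte commitment the factors C/EBP alpha and Gfi1 act with the early, or primary, granule programme of Mpo, Elane and Prtn3. In monocyte and dendritic cell commitment the factors PU.1 and Irf8 act with the receptors Csf1r and Flt3, which bind the growth factors M-CSF and FLT3 ligand. Trib1 encodes a pseudokinase that brings C/EBP alpha to a ubiquitin ligase for degradation.

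The data showed 2 opposed groups: primary granule genes low in MDP, and monocyte genes high in MDP. Promoters of genes from each are shown because PU.1 acts in both lineages and the factors named above are known to use such promoters. Each runs 5′ to 3′ from 250 bases before to 50 bases after the start of the gene, from RefSeq on build GRCm38.p6. Capitals mark matches on either strand to the C/EBP letters TTGCNNAA, the PU.1 letters GAGGAA and the interferon response letters GAAANNGAAA, which Irf8-containing complexes can use.
Ms4a3 promoter, chr19:11640802-11641101, minus strand: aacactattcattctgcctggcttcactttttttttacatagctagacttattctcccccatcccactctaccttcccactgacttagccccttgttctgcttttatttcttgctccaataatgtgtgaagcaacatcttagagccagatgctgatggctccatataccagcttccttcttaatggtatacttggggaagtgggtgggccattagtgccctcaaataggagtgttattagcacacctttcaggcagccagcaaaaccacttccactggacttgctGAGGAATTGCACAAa
Elane promoter, chr10:79886062-79886361, plus strand: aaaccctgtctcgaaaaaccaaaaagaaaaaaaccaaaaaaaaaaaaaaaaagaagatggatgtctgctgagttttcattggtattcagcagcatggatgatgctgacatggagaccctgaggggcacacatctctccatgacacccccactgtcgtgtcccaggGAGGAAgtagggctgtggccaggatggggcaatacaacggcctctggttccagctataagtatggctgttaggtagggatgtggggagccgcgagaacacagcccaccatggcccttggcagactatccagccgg
Prtn3 promoter, chr10:79879417-79879716, plus strand: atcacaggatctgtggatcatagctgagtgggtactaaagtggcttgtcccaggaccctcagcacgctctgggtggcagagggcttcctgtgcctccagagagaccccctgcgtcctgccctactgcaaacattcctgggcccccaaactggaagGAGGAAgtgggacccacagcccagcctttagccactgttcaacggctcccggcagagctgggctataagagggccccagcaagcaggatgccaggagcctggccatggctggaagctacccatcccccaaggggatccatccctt
Ctss promoter, chr3:95526536-95526835, plus strand: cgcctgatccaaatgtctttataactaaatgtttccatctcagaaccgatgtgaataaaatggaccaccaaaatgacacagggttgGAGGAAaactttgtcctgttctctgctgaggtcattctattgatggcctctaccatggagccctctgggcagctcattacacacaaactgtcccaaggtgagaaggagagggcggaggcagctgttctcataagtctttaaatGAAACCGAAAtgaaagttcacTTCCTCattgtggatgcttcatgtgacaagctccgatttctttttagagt

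The Ms4a3 window held a PU.1 match 35 bases after the start, followed directly by a C/EBP match at 41. Elane and Prtn3, neighbouring protease genes on chromosome 10, each held 1 PU.1 match, 85 and 95 bases before their starts. Ctss held PU.1 matches 164 bases before the start and at the start itself, with an interferon response match between them, 21 bases before the start. No 2 matches overlapped in these windows. Of 14 promoters of the 11 primary granule genes that were at least 2-fold lower and had a promoter in the table, 6 held the PU.1 letters, 3 the C/EBP letters and 1 the interferon response letters. Of 12 promoters of 11 monocyte genes at least 2-fold higher, 5 held the PU.1 letters, 0 the C/EBP letters and 1 the interferon response letters. Among all 32851 promoters of the same length the shares were 28.3%, 10.8% and 3.44%. The MYB letters AACTG, searched too and left in lower case, were in 10 of the 14 and 9 of the 12 promoters against 44.8% of all. These are matches of letters in a short window, not measured binding.

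Among all genes above the floor, 485 (4.16%) were at least 2-fold higher in MDP and 1445 (12.4%) at least 2-fold lower. At 4-fold the counts were 37 (0.318%) and 151 (1.3%). The median over all genes was -0.04 and the quartiles were -0.58 and 0.40, with 5498 genes above 0 and 6133 below. Of the higher genes 164 (33.8%) had a GMP value below the floor, and of the lower genes 328 (22.7%) had an MDP value below it. Raising such values to the floor left 362 genes higher (3.11%) and 1274 lower (10.9%).

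**Figure D1:**
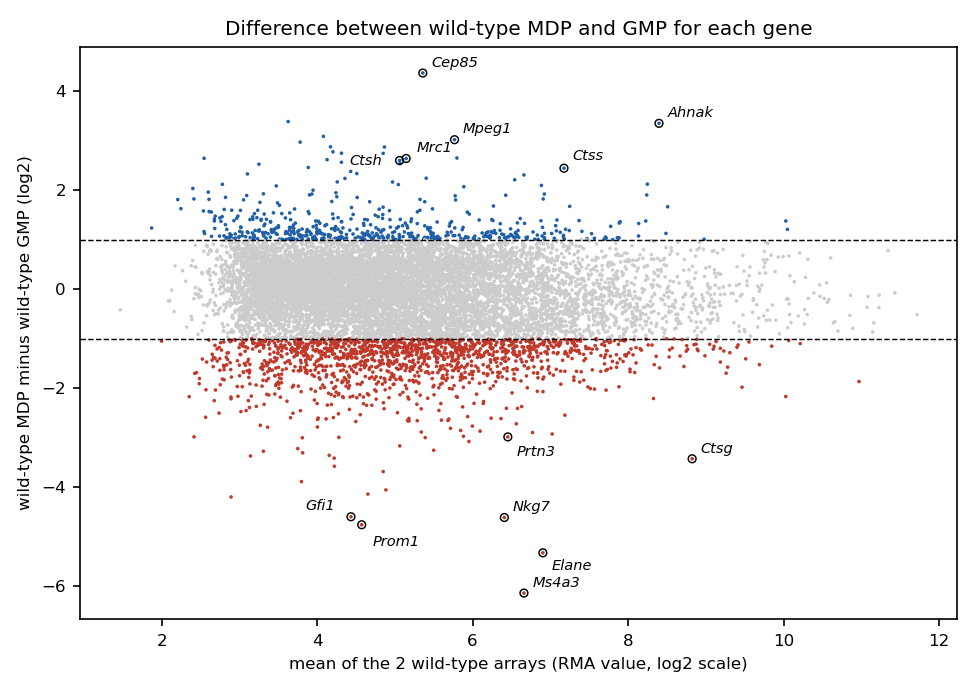
Each point is 1 gene. The x axis is the mean of both wild-type arrays (RMA value, log2), the y axis is MDP minus GMP (log2), dashed lines mark 2-fold, blue points are the 485 higher and red points the 1445 lower genes. The lowest points are Ms4a3 at -6.14 and Elane at -5.33, both larger in size than the highest point, Cep85 at 4.37.

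The wild-type GMP array lay farther from the MDP arrays than the Trib1-/- GMP array did. Over all probe sets it correlated with them at 0.948 (wild-type) and 0.9497 (Trib1-/-), while the Trib1-/- GMP array correlated with them at 0.964 and 0.967. The arrays of 1 cell type correlated best, at 0.977 for GMP and 0.976 for MDP. The hybridisation controls BioB and BioC, spiked at fixed amounts, averaged 10.42 on the wild-type GMP array and between 10.78 and 11.05 on the others. Many lists below are therefore given again as wild-type MDP minus Trib1-/- GMP, which leaves the wild-type GMP array out. For the rest that comparison is shown only as a median in the plot of all lists. The comparison sets wild-type MDP against Trib1-/- GMP, so a change of array and a change of genotype cannot be told apart in it. Against the Trib1-/- GMP array 330 genes (2.83%) were higher in wild-type MDP and 573 (4.92%) lower, so 573 stood in place of 1445 lower genes, and lower genes made up 63.5% of the genes past 2-fold in place of 74.9%. The Trib1-/- pair, which shares no array with the wild-type pair, is given beside it and had 320 genes higher (2.75%) and 475 lower (4.08%). It differs from the wild-type pair in genotype and is not a replicate of it. The probe sets of Trib1 read 4.85 and 4.95 on wild-type GMP, 5.13 and 5.99 on wild-type MDP, 5.19 and 5.10 on the GMP array labelled Trib1-/-, and 4.71 and 5.56 on the MDP array so labelled. Since the sources used here do not say which part of Trib1 was deleted, these values do not check the genotype labels, and Trib1-/- below is the label's word.

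Irf8, Csf1r, Flt3, Mpeg1, Ms4a3, Elane and Gfi1 lay on the side that the cell labels call for in both pairs. Kit, also an MDP marker and given below, did not. Irf8, a transcription factor of monocyte and dendritic cell commitment, read 5.51 on wild-type GMP and 7.81 on wild-type MDP, 4.95-fold higher, and 4.81 and 7.77 in the Trib1-/- pair. Csf1r, the receptor for M-CSF, read 5.997 and 7.82, a 3.54-fold difference, and 6.01 and 7.81 in the Trib1-/- pair. All 3 probe sets of Csf1r and every other Irf8 probe set above the floor were higher in MDP. Flt3, the receptor for FLT3 ligand, read 2.95 and 4.85 (2.66 and 5.50 in the Trib1-/- pair), so its GMP values lay below the floor and its difference of 1.90 became 1.57 once they were raised to it. Mpeg1, which encodes the pore-forming protein perforin-2 of macrophages, read 4.26 and 7.28 and was 8.11-fold higher. For each of these 4 genes both MDP arrays lay above both GMP arrays.

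The GMP markers showed the reverse order. Ms4a3, a membrane protein gene of granulocyte monocyte progenitors, read 9.73 on wild-type GMP and 3.59 on wild-type MDP, the largest difference of any named gene at 70.5-fold. Elane, which encodes neutrophil elastase, read 9.57 and 4.24, a 40.1-fold difference. Gfi1, a repressor needed for neutrophil development, read 6.73 and 2.14. Its MDP value lay below the floor, so the 24.2-fold difference is -3.45 on the log2 scale, in place of -4.60, with that value raised to the floor. In the Trib1-/- pair the differences of Ms4a3, Elane and Gfi1 were -5.12, -5.53 and -4.38. Kit, the stem cell factor receptor by which MDPs are usually sorted, went against the MDP label: it read 6.01 on wild-type GMP and 2.43 on wild-type MDP, below the floor, and 5.39 and 2.69 in the Trib1-/- pair. Cx3cr1, the fractalkine receptor that also marks MDPs, differed little, at 5.34 and 5.67. Cd34, a progenitor surface protein, read 7.52 and 6.16. The label MDP thus goes with Irf8, Csf1r and Flt3 but not with Kit in these arrays.

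**Figure D2:**
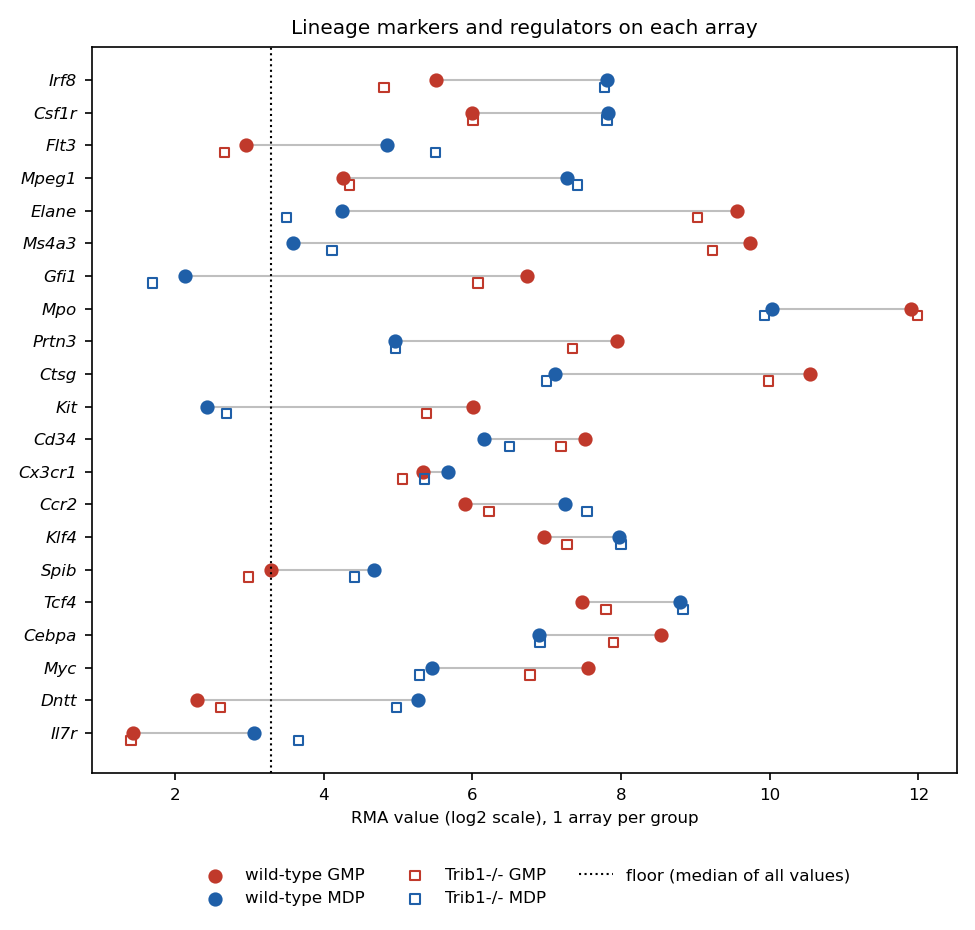
Values of 21 markers and regulators on each of the 4 arrays (x axis, RMA value, log2); filled points are wild-type, open squares Trib1-/-, red GMP and blue MDP, grey lines join the wild-type values and the dotted line is the floor. Irf8, Csf1r and Mpeg1 lie to the right in MDP on both genotypes, while Ms4a3, Elane, Gfi1 and Kit lie to the left.

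Primary granule and early granulocyte genes were far lower on the MDP array than on the GMP array. Of 18 listed genes 15 were above the floor, and in MDP 13 were lower by at least 2-fold and 0 higher, against 12.4% lower among all genes. Their median difference was -2.98, beside -0.04 for all genes. The 3 serine protease genes stood together: Elane (above), Ctsg, cathepsin G, at 10.54 and 7.11, and Prtn3, proteinase 3, at 7.95 and 4.96. Each of them was also lower by more than 4-fold in the Trib1-/- pair. Nkg7, a granule membrane protein gene, read 8.71 and 4.10. Serpinb1a, an inhibitor of those proteases, read 7.49 and 4.41, and Cst7, the cysteine protease inhibitor cystatin F, read 6.89 and 3.89. Mpo, the myeloperoxidase gene, named after its values were seen, read 11.90 and 10.04, a smaller difference than that of the proteases, and 11.99 and 9.93 in the Trib1-/- pair. Ctsc, cathepsin C, which activates the granule proteases, read 5.92 and 5.91, and Fcnb, ficolin B, was below the floor on both wild-type arrays. The Trib1-/- pair also had 13 lower and 0 higher, with a median of -2.38, and wild-type MDP minus Trib1-/- GMP gave 13 and 0 with -2.37. In bulk RNA a smaller share of granule-forming cells and less granule RNA per cell cannot be told apart.

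Later neutrophil genes were less clearly ordered. Of 11 above the floor 5 were at least 2-fold lower, against 12.4% of all genes, and 0 higher. The median was -0.77, which was -0.22 with values under the floor raised to it. The Trib1-/- pair also had 5 lower, with a median of -0.24, and wild-type MDP minus Trib1-/- GMP had 3 with -0.74. Pglyrp1, a peptidoglycan recognition protein, read 5.30 and 2.96, S100a8, a calprotectin subunit, 4.51 and 2.51, and Anxa1, annexin A1, 7.86 and 5.80, although a second Anxa1 probe set differed by only -0.12. Secondary granule genes sat near the floor on all arrays: Ltf, lactoferrin, read 3.72 and 3.57 and Camp, cathelicidin, 4.0004 and 3.91.

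Genes of basophils, mast cells and eosinophils were high on the wild-type GMP array and low on the MDP array. All 7 basophil and mast cell genes above the floor were at least 2-fold lower in MDP, against 12.4% of all genes, with a median of -2.78. Hdc, which makes histamine, read 6.91 and 2.86, Ms4a2, the beta chain of the IgE receptor, 5.396 and 2.61, and Gata2, a regulator of these lineages and of stem cells, 7.11 and 4.99. This list depended on the wild-type GMP array. Cpa3, mast cell carboxypeptidase, read 5.93 on it and 3.56 on the Trib1-/- GMP array, and Gzmb, granzyme B, read 4.99 and 1.62, so the Trib1-/- pair had 4 genes lower, a median of -1.66 and a Gzmb difference of -0.21. Wild-type MDP minus Trib1-/- GMP gave 5 lower and -1.21. Of 4 eosinophil genes above the floor 3 were lower: Prg2, major basic protein, read 6.72 and 2.58, Epx, eosinophil peroxidase, 5.47 and 2.16, and Siglecf 4.64 and 1.89, while Il5ra read 4.21 and 4.25. All 3 MDP values lay below the floor. The eosinophil median was -3.03 in wild type and -1.11 in the Trib1-/- pair, which had 2 genes lower. Wild-type MDP minus Trib1-/- GMP gave 3 lower and -2.08.

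Monocyte genes were higher in MDP in both pairs. Of 32 listed genes 24 were above the floor, 13 of them at least 2-fold higher in MDP, against 4.16% of all genes, and 1 lower. The median was 1.08. Beside Mpeg1 and Csf1r, Ctss, the lysosomal protease cathepsin S, read 5.95 and 8.40, and F13a1, the A subunit of coagulation factor XIII, read 7.68 and 9.34. Pld4, a phospholipase D family exonuclease of endosomes, read 2.82 and 5.44. Ccr2, the chemokine receptor by which monocytes leave the marrow, read 5.91 and 7.25. These 6 genes had both MDP arrays above both GMP arrays. Ms4a6c and Ms4a6b, of the gene family that also holds Ms4a3, were 1.92 and 1.13 higher, although a second Ms4a6c probe set near the floor differed by -0.07. Klf4, a transcription factor of inflammatory monocytes, read 6.96 and 7.98. The exception was Plac8, at 10.22 and 8.81. The lysozyme genes Lyz2 (5.87 and 5.68) and Lyz1 (6.78 and 7.03) differed by less than 2-fold. In the Trib1-/- pair 11 genes were higher and 2 lower with a median of 0.80, and wild-type MDP minus Trib1-/- GMP gave 11 and 1 with 0.78. Raising values under the floor to it gave a wild-type median of 0.42.

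Resident macrophage genes as a group stood out on the wild-type MDP array. Of 22 genes above the floor 12 were at least 2-fold higher in wild-type MDP, against 4.16% of all genes, and 0 lower. All 22 differences were above 0, and the median was 1.14. Mrc1, the mannose receptor, read 3.83 on wild-type GMP and 6.46 on wild-type MDP. Vcam1, an adhesion molecule of marrow macrophages, read 5.43 and 7.11. Cd163, the haemoglobin scavenger receptor, read 1.93 and 5.32, so its GMP value lay below the floor. The Trib1-/- pair did not show the group: Mrc1 read 3.51 and 4.24, Vcam1 4.77 and 3.90, and only Cd163, at 1.66 and 3.50, was at least 2-fold higher. There the list had 1 gene higher, 0 lower and a median of 0.00. The same split held for Slc40a1, the iron exporter ferroportin, and Spic, a transcription factor of iron-recycling macrophages, both named after their values were seen. Slc40a1 read 5.199 and 6.72 in wild type and 4.26 and 3.69 in Trib1-/-, and Spic read 3.10 and 4.67 against 3.79 and 3.41.

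The macrophage difference followed the wild-type MDP array, whichever GMP array it was set against. Wild-type MDP minus Trib1-/- GMP gave 10 genes higher and a median of 0.93, while Trib1-/- MDP minus wild-type GMP gave a median of 0.31. The sum of the list's log2 values, which is not an amount of RNA, was 106.3 on wild-type MDP and between 77.1 and 80.2 on the other arrays. All 22 members reached the floor on wild-type MDP, against 11 on wild-type GMP and 14 on each Trib1-/- array. Some members, such as C1qb and Axl, passed the floor through the wild-type MDP array alone, so the filter itself fixed part of these counts and sums. Raising values under the floor to it gave 9 genes higher in the wild-type pair, 0 lower and a median of 0.81. Further macrophage genes on the list, C1qa, C1qc, Cd5l, Vsig4, Folr2 and Hpgd, were below the floor on every array, while C1qb, of the same complement complex, read 4.27 on wild-type MDP and from 1.94 to 2.02 on the others. On the Trib1-/- MDP array, where the log2 values of the macrophage list summed to 80.2, the monocyte genes Mpeg1, Ctss, Csf1r and F13a1 read 7.42, 7.93, 7.81 and 9.37, beside 7.28, 8.40, 7.82 and 9.34 on wild-type MDP.

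**Figure D3:**
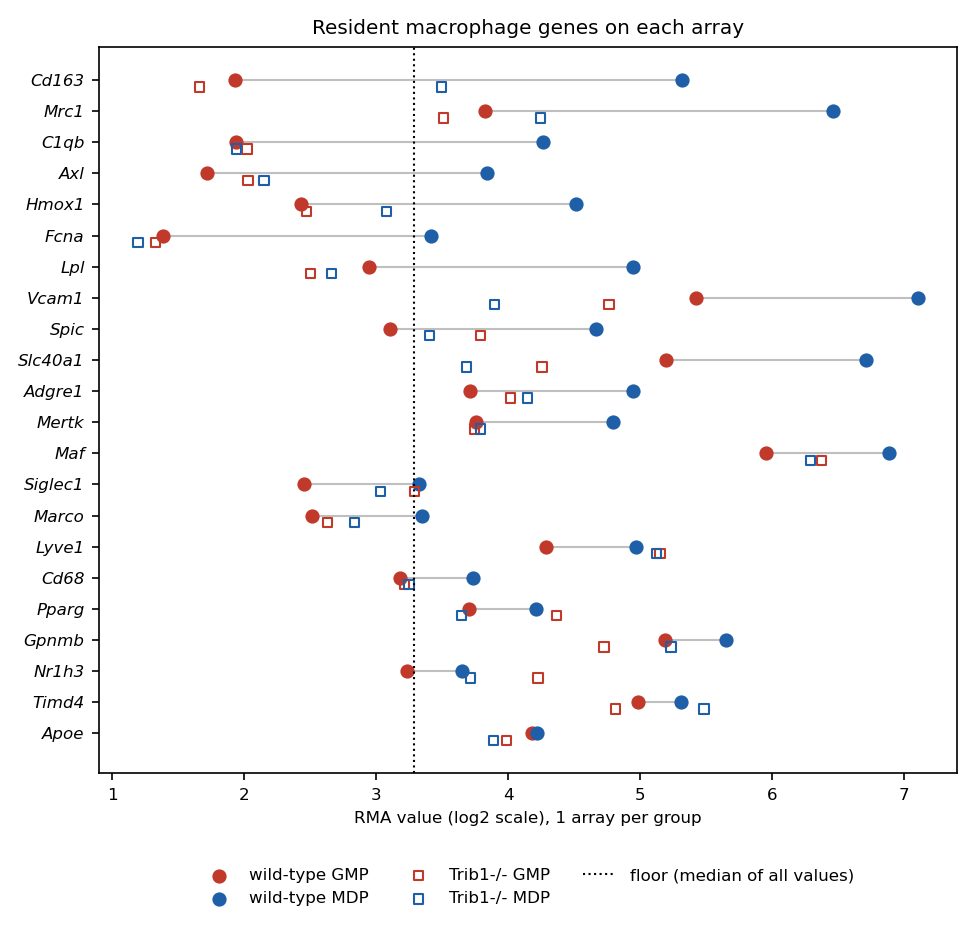
Values of the 22 resident macrophage genes above the floor on each array (x axis, RMA value, log2), ordered by the wild-type difference; symbols are as for the marker plot. Filled blue points, the wild-type MDP array, lie right of the other three for most genes, as for Mrc1 at 6.46 and Vcam1 at 7.11, and the open blue squares of Trib1-/- MDP do not follow them.

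Conventional dendritic cell genes were partly higher in MDP. Of 20 above the floor 7 were at least 2-fold higher and 1 lower, where 4.16% and 12.4% of all genes were, with a median of 0.67. The Trib1-/- pair had 7 and 0 with 0.64, and wild-type MDP minus Trib1-/- GMP had 9 and 1 with 0.76. Raising values under the floor to it gave 4 higher and a median of 0.34. Irf8 and Flt3 belong to this list and account for 2 of the 7. Cadm1, an adhesion molecule of cross-presenting dendritic cells, read 4.88 and 6.68, but its other probe sets differed by 0.15 to 0.54. Dpp4, a surface peptidase, read 6.82 and 7.99. Several defining genes differed by less than 2-fold: Zbtb46, a factor of the classical dendritic lineage, read 4.63 and 4.81, and Batf3, needed for cross-presenting cells, 3.11 and 3.79. The gene lower in MDP was Cd24a, at 9.99 and 8.81.

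Of 14 plasmacytoid dendritic cell genes above the floor 3 were at least 2-fold higher and 0 lower, where 4.16% and 12.4% of all genes were. Tcf4, the regulator that specifies these cells, read 7.47 and 8.80, Spib, an Ets factor acting with it, 3.29 and 4.67, and Siglech, a surface lectin, 3.60 and 4.699. Tcf4 and Spib had both MDP arrays above both GMP arrays. Antigen presentation through MHC class II was near the floor: 9 of 15 listed genes passed it, and the chain genes H2-Ab1 and H2-Eb1 did not. Cd74, the invariant chain, read 2.92 and 3.61. H2-DMb2, a peptide-loading chain, read 3.24 and 5.48, but its other probe set above the floor read 3.83 and 4.51. In the Trib1-/- pair H2-DMb2 read 4.05 and 4.70. Ifi30, a lysosomal thiol reductase, read 4.21 and 5.23 in wild type. MHC class I genes went the other way in the wild-type pair, with 5 of 15 lower, against 12.4% of all genes, and a median of -0.54. Against the Trib1-/- GMP array 3 were lower and the median was -0.11, and the Trib1-/- pair had 2 lower. B2m read 10.58 and 9.55 in wild type but 9.97 on the Trib1-/- GMP array. The list shares Calr, Canx and Pdia3 with the protein folding list below.

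Among 41 lineage regulators above the floor 9 were at least 2-fold lower in MDP and 6 higher, and the median was 0.17. On the granulocyte side stood Gfi1 (above) and Cebpa, which encodes C/EBP alpha and read 8.54 and 6.89 in wild type and 7.90 and 6.91 in Trib1-/-. Cebpd, a related factor, read 4.36 and 3.19. Myc, a driver of growth and division, read 7.56 and 5.46. Gata2, Hhex, Egr2, Stat5a and Tfec completed the lower group, with differences from -2.12 to -1.06. The higher group held Irf8, Spib, Tcf4 and Klf4, with Bach2, a repressor of myeloid genes in lymphoid progenitors, at 5.71 and 6.74, and Bcl6, a repressor, at 3.47 and 4.77. Bcl6 rested on the wild-type GMP array, since it read 4.78 on the Trib1-/- GMP array. Against that array 5 regulators were lower and 6 higher in wild-type MDP, with a median of 0.18.

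Of 25 cytokine and growth factor receptors above the floor 6 were at least 2-fold higher and 2 lower, where 4.16% and 12.4% of all genes were. Beside Csf1r and Flt3, Il6st, the gp130 chain shared by interleukin-6 family receptors, read 3.99 and 6.10, the same step as in the Trib1-/- pair (4.26 and 6.37). Csf2rb2, a beta chain of the interleukin-3 receptor, read 3.05 and 4.30, and Il10ra 2.76 and 3.86. Il7r, the interleukin-7 receptor chain, read 1.44 and 3.06, both below the floor. The lower receptors were Kit and Ifngr1, the interferon gamma receptor, which read 6.48 and 4.53. Csf3r, the G-CSF receptor of neutrophils, read 4.25 and 3.34, a difference of -0.91. Wild-type MDP minus Trib1-/- GMP gave 5 receptors higher and 3 lower.

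Stem and progenitor genes were lower or little different. Of 25 above the floor 9 were at least 2-fold lower in MDP and 0 higher, where 12.4% and 4.16% of all genes were. The median was -0.46 (0.04 for wild-type MDP minus Trib1-/- GMP, still with 9 lower, and 1 higher). Prom1, the surface protein prominin-1, read 6.95 on wild-type GMP and 2.19 on wild-type MDP. It read 7.09 and 1.02 in the Trib1-/- pair, the largest lower difference there among the genes named here. Cd27 read 5.87 and 3.65, Lmo2, a transcriptional adaptor of early blood cells, 8.86 and 7.19, and Cdk6, a cell cycle kinase of progenitors, 8.45 and 7.42.

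Of 11 B cell and lymphoid genes above the floor 4 were at least 2-fold higher in MDP and 1 lower, and 2 were higher in the Trib1-/- pair. Dntt, the DNA polymerase that adds bases at joins of antigen receptor genes, read 2.30 and 5.27 in wild type and 2.61 and 4.98 in Trib1-/-, and its 3 probe sets were all higher in MDP. Cd79a and Blnk, components of B cell receptor signalling, read 3.44 and 4.62, and 3.43 and 4.499, but were 4.12 and 4.48, and 3.46 and 3.61, in the Trib1-/- pair. The remaining higher gene was Il7r, below the floor on both wild-type arrays. T and NK cell genes had 1 of 8 higher and 1 lower, plasma cell genes 2 of 8 higher and 1 lower. Erythroid and megakaryocyte genes had 1 of 7 in each direction. Among all genes 4.16% were higher and 12.4% lower, so the lower counts of these short lists were near the share of all genes.

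Genes of the cytoskeleton and of attachment lay on both sides. Of 23 actin and adhesion genes above the floor 7 were at least 2-fold higher in MDP and 4 lower, and in the Trib1-/- pair 10 and 1. Among all genes 4.16% were higher and 12.4% lower in the wild-type pair. Ahnak, a large scaffold protein under the plasma membrane, read 6.72 and 10.07 and was 10.2-fold higher, with a second, weak probe set at 0.65. Vim, the intermediate filament vimentin, read 9.34 and 10.72, and Tpm4, a tropomyosin, 5.44 and 7.65. On the other side Cd81, a tetraspanin, read 7.69 and 6.08. Without the wild-type GMP array 9 genes of this list were higher and 1 lower. The integrin list, which also holds Fermt3 and Tln1, genes that are not integrins, had 3 of 15 in each direction. Itgb7 read 2.73 and 5.61 and Itga9 3.18 and 5.34. Itga6 read 7.05 and 5.34, Itga4 7.63 and 6.45 and Fermt3 6.56 and 5.04, though other Fermt3 probe sets differed by -1.42 to -0.02. Itga4 and Itgb7 are partners in 1 receptor.

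Lysosomal genes had 4 of 30 higher (13.3%, against 4.16% of all genes) and 3 lower (10%, against 12.4%). Against the Trib1-/- GMP array 6 were higher and 0 lower, where 2.83% and 4.92% of all genes were. Ctsh, cathepsin H, read 3.76 and 6.36, Psap, the prosaposin that activates lipid hydrolases, 5.84 and 7.93, and Ctsl, cathepsin L, 4.80 and 6.05, though another Ctsl probe set was lower. Ctse, cathepsin E, was lower in wild type. Of 7 Fc receptor genes above the floor 2 were lower, against 12.4% of all genes, both low-affinity IgG receptors: Fcgr3 read 6.58 and 4.74 and Fcgr2b 6.76 and 4.92. Fcgr3 was lower still on Trib1-/- MDP, at 2.92. Toll-like receptors and their adaptors had 2 of 12 higher, Cd14 and Ly86, and 0 lower. Among chemokine genes Ccl9 was lower, at 8.58 and 6.56, and Cxcl10 read 2.15 and 3.96 against 3.48 and 3.52 in the Trib1-/- pair.

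Genes of protein folding in the endoplasmic reticulum were lower in MDP. Of 28 above the floor 20 were at least 2-fold lower, against 12.4% of all genes, and 0 higher, and the median was -1.21. Sdf2l1 and Manf, both induced when unfolded protein builds up, read 5.78 and 2.78, and 6.55 and 4.13. Xbp1, a transcription factor of that response, read 6.004 and 4.17, P4hb, a disulphide isomerase, 10.11 and 8.41, and Calr, calreticulin, 10.76 and 9.66. The Trib1-/- pair had 10 lower, 0 higher and a median of -0.76, and wild-type MDP minus Trib1-/- GMP 11, 0 and -0.83. Ribosome biogenesis genes had 12 of 31 lower, against 12.4% of all genes, and 0 higher, with a median of -0.89. Gnl3, nucleostemin, read 7.96 and 6.30 and Ncl, nucleolin, 9.21 and 7.84, with 1 Ncl probe set in the other direction. Without the wild-type GMP array that median was -0.68, with 8 lower.

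Lists of housekeeping complexes were lower in the wild-type pair but depended on the wild-type GMP array. Among all genes 12.4% were lower in the wild-type pair and 4.92% for wild-type MDP minus Trib1-/- GMP. Respiratory chain and ATP synthase genes had 39 of 77 lower and 1 higher with a median of -1.003, which became 2 lower and -0.23 for wild-type MDP minus Trib1-/- GMP. Cytosolic ribosomal protein genes had 20 of 45 lower and 1 higher with a median of -0.95, which became 1 lower and -0.28. Rps25, at 4.85 and 6.92, was the ribosomal gene higher in wild-type MDP. Proteasome genes went from 16 of 38 lower (median -0.90) to 1 (-0.26), and mitochondrial ribosomal genes from 28 of 73 (median -0.86) to 5 (-0.21). The BioB and BioC controls were 0.63 lower on the wild-type GMP array than on wild-type MDP, and whether the controls' difference and theirs share a source was not tested. The controls' difference was 0.15 in the Trib1-/- pair, in which the lists' medians were -0.38, -0.55, -0.41 and -0.18 in the order given, with 5, 2, 0 and 10 genes lower.

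Glycolysis genes were lower in MDP, while the other metabolic and cell cycle lists were less apart. Glycolysis genes had 6 of 15 lower, against 12.4% of all genes, and 0 higher, with a median of -0.88. Without the wild-type GMP array 3 were lower, where 4.92% of all genes were, with a median of -0.70. Tpi1, triosephosphate isomerase, read 7.01 and 4.36 in wild type and 6.03 and 4.19 in Trib1-/-, and Ldha, lactate dehydrogenase A, 8.23 and 7.16. DNA replication genes had 5 of 37 lower, a share near the 12.4% of all genes, and 0 higher: Dut, which clears dUTP, read 8.74 and 6.70, and Mcm6, of the replicative helicase, 8.09 and 6.89. Without the wild-type GMP array 0 of the 37 were at least 2-fold lower. Mitosis genes had 1 of 34 higher, 0 lower and a median of -0.01, which became 4 higher and 0.40 without the wild-type GMP array. Cholesterol and fatty acid genes had 1 of 23 lower, lipid uptake genes 1 of 19 higher (Lpl) and NF-kB genes 2 of 20 higher, among them Cd83, a marker of activated dendritic cells, at 3.03 and 5.59. Immediate early genes had 3 of 25 lower, close to the 12.4% of all genes, and 0 higher, but 0 lower and 5 higher against the Trib1-/- GMP array. Interferon response genes had 2 of 18 in each direction, where 4.16% of all genes were higher and 12.4% lower, and 0 in either against that array.

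**Figure D4:**
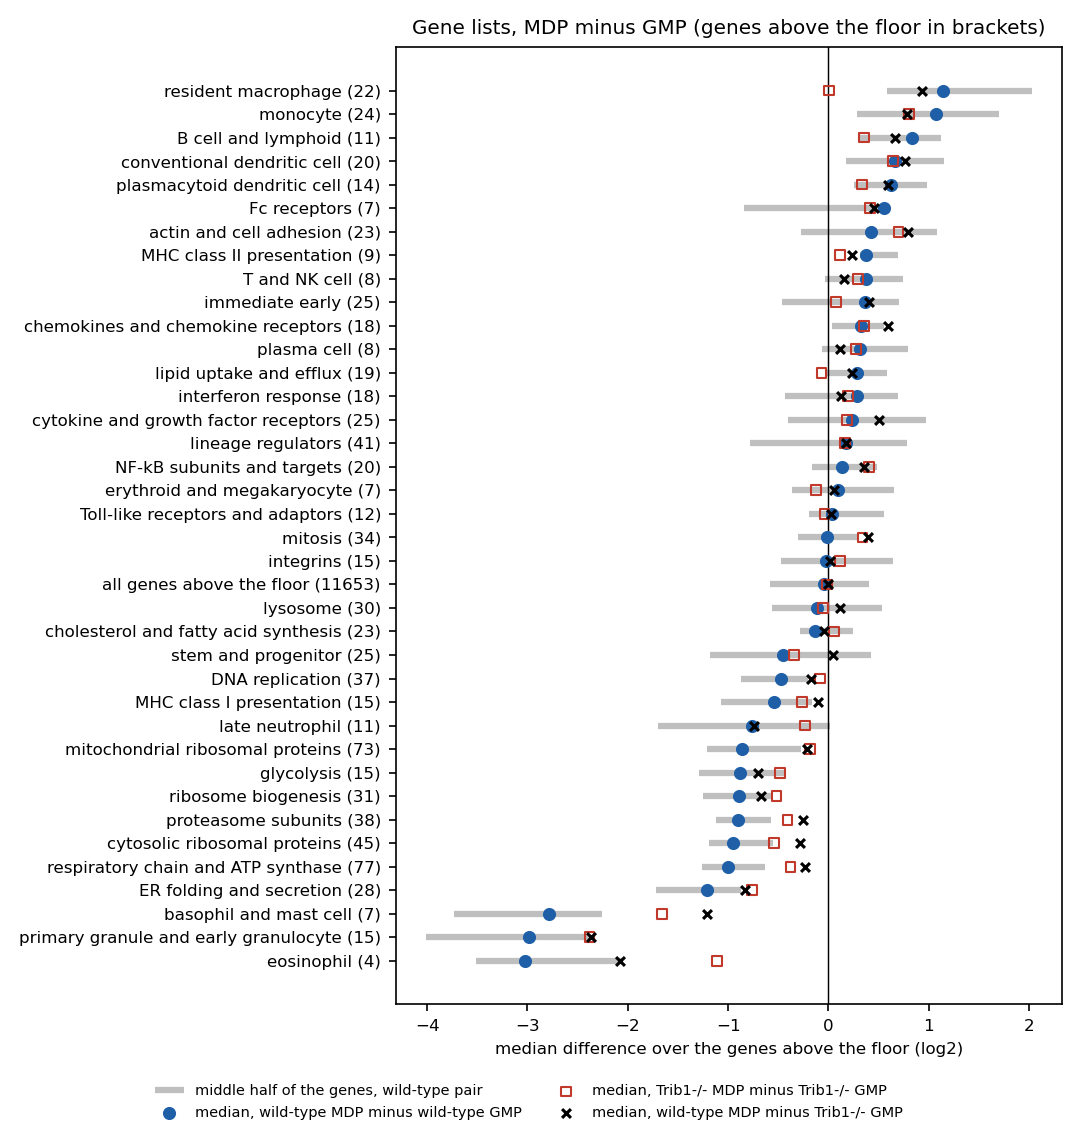
Median difference of each gene list (x axis, log2); blue points are the wild-type pair with a grey bar for the interquartile range of its genes, red squares the Trib1-/- pair and crosses wild-type MDP minus Trib1-/- GMP. Primary granule genes lie far left for all 3, monocyte genes right for all 3, resident macrophage genes right for both that use wild-type MDP, and the respiratory chain median goes from -1.003 to -0.23 without the wild-type GMP array.

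Beyond the lists, the largest higher gene was Cep85, a centrosomal protein gene, at 3.18 and 7.54. It read 3.86 and 7.37 in the Trib1-/- pair, but its second probe set read 3.50 and 3.55 in wild type, so the value belongs to 1 probe set. Pdzd4, a PDZ domain protein, read 3.48 and 6.22, and Il31ra, a receptor of the gp130 type, 3.80 and 6.33. Both were at least 2-fold higher in the Trib1-/- pair as well. Mfhas1 and Plcxd2 were not: they read 4.47 and 7.12, and 2.54 and 5.62, but 6.23 and 5.13 on the Trib1-/- GMP array. The other Plcxd2 probe set differed by 0.16 in wild type. Among lower genes outside the lists, Mgam, an intestinal-type glucosidase, read 6.69 and 3.01 in wild type and 7.002 and 3.04 in Trib1-/-. Dstn, the actin-severing protein destrin, read 7.37 and 4.40, and Smim4, a small mitochondrial membrane protein, 7.13 and 3.87 against 5.54 and 4.54.

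Gene by gene, the Trib1-/- pair gave the same sign for 397 of the 485 higher genes (81.9%) and 1308 of the 1445 lower genes (90.5%), where 48.4% and 51.3% of all genes lay above and below 0 in that pair. At 2-fold in both pairs, 115 genes were higher, which is 23.7% of the wild-type and 35.9% of the Trib1-/- higher genes. The lower genes shared were 332, which is 22.98% of the wild-type and 69.9% of the Trib1-/- lower genes. Across the 11653 genes, which are not independent replicates, the differences correlated with Pearson's r of 0.597 and Spearman's rho of 0.519. In the strictest form, with both MDP arrays at least 2-fold from both GMP arrays, 90 genes (0.772%) were higher in MDP and 214 (1.84%) lower. That set held 10 of the 24 monocyte genes, 13 of the 15 primary granule genes, 7 of the 28 folding genes and 1 of the 22 resident macrophage genes.

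**Figure D5:**
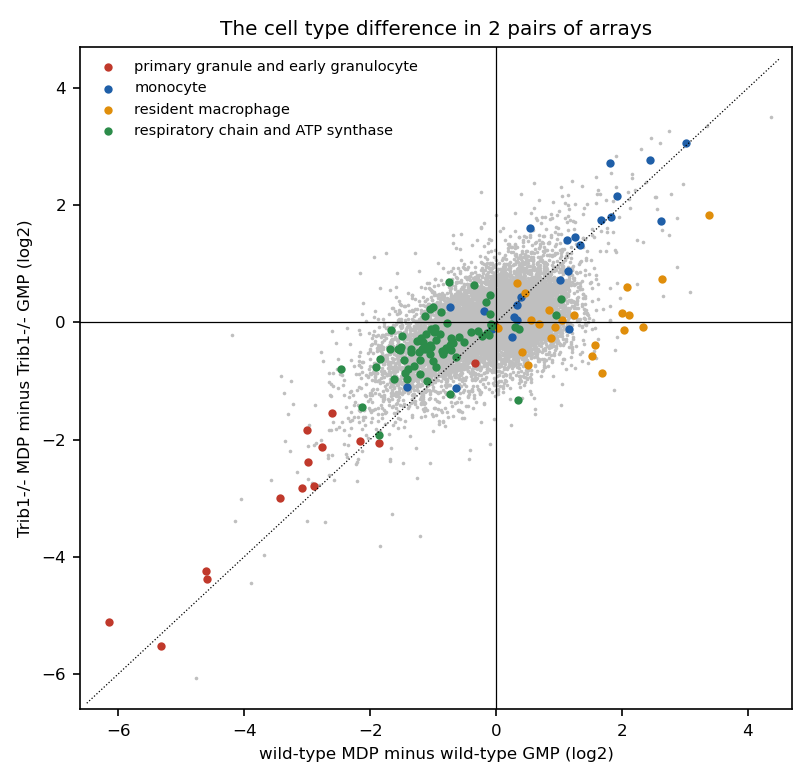
Each grey point is 1 of the 11653 genes; the x axis is the difference in the wild-type pair and the y axis that in the Trib1-/- pair (both log2), and the dotted line marks equal values. Primary granule genes (red) and monocyte genes (blue) lie along the line, resident macrophage genes (orange) extend right at values near 0 on the y axis, and respiratory chain genes (green) lie left with a smaller difference in the Trib1-/- pair.

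Probe sets of 1 gene give the measure of error that these arrays allow. The SD of the wild-type difference between probe sets of a gene was 0.543, over the 4922 genes that had more than 1 above the floor. Of 786 such genes at 2-fold, 582 (74.0%) had all in 1 direction. For each of them 1 of the probe sets was the one that placed the gene at 2-fold. The same share over all 4922 genes is not given here. The number of arrays limits the precision, and the spread between animals, sorts and hybridisations is not in these values.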

How the data were processed

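Per the labels' protocols, total RNA of sorted cells was extracted with Trizol and made into biotinylated cRNA by NuGEN Ovation amplification. The authors made the values with RMA, per the submitters' processing notes, with no version given in the sources used here. The deposited values ran from 0.14 to 14.5 and were taken as log2 values, a scale inferred from that range. RMA makes the distributions of the arrays alike (medians from 3.27 to 3.31), so a difference in total RNA per cell does not show.

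Of 45101 probe sets, the 34945 with 1 gene symbol in the platform annotation were used. Each gene was read from the probe set whose mean over the 4 arrays was highest. No spread can be estimated from 1 array per group, so differences were counted at 2-fold. The counting code was checked on simulated data, which does not bear on the choice of 2-fold. The members and the 37 gene lists were chosen with earlier results of these data known. The genes named were the markers, Trib1, Kit, Cd34 and Cx3cr1, the 15 largest in each direction whose probe sets agreed in sign, up to 8 per list and direction, and all regulators and receptors above the floor. Promoters came from RefSeq. Alternatives were other floors, probe set rules, size rules, cyclic loess (limma 3.58.1, R 4.3.3) and 32 added to the linear value. Swaps of a Trib1-/- array for a wild-type one were chosen after seeing the data. Python 3.11.15 with pandas 2.3.3 was used. Genes with no usable probe set, such as Cebpe and Ly6c2, are not analysed here.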

Additional observations from a re-analysis of the deposited data

Results flagged for a closer look

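For 6 genes the wild-type pair and the Trib1-/- pair were at least 2-fold apart in opposite directions; each value is from 1 array per group, and the difference between the pairs was not tested. Lower in wild-type MDP and higher in Trib1-/- MDP were Aaas, a nuclear pore protein gene (-1.94 in wild type and 1.12 in Trib1-/-), Atpsckmt, a methyltransferase gene of mitochondria (-1.75 and 1.19), and Ctse (-1.29 and 1.18). Ctse read 6.80 on wild-type GMP and 3.25 on Trib1-/- GMP, and its second probe set differed by -0.12 in wild type. Higher in wild-type MDP and lower in Trib1-/- MDP were Slc12a3, a sodium chloride transporter gene (1.87 and -1.15), Ptchd3 (1.05 and -1.05) and Lgi1 (1.03 and -1.42).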

How the results depend on the processing

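The 485 higher and 1445 lower genes depended on how weak values were handled. Higher genes numbered 302 with the floor at the 75th percentile, 237 when all probe sets of a gene were averaged, 48 with 32 added to the linear value, 37 at 4-fold and 1850 at 1.5-fold. Lower genes numbered 317 with 32 added, 573 with the Trib1-/- GMP array in place of the wild-type one, 151 at 4-fold and 2892 at 1.5-fold. Lower genes were 74.9% of those past 2-fold, 86.8% with 32 added, 63.5% with the Trib1-/- GMP array and 61.0% at 1.5-fold. With 32 added, the list medians were -1.99 for primary granule, 0.24 for monocyte and 0.39 for resident macrophage genes. Raising values under the floor to it gave a monocyte median of 0.42 and left Il7r at 0. With the Trib1-/- GMP array the medians were -2.37 for primary granule, -0.28 for cytosolic ribosomal and -0.23 for respiratory chain genes, and with the Trib1-/- MDP array the resident macrophage median was 0.31. Single genes also turned: with the Trib1-/- GMP array Aaas was at 0.11, Ctse at 2.26, Bcl6 at -0.0078, Ptchd3 at -0.17 and Slc12a3 at -0.081, and with the Trib1-/- MDP array C1qb was at 0, Lgi1 at -1.06, Lpl at -0.29, Slc40a1 at -1.51 and Vcam1 at -1.53. The Fc receptor median turned to -1.84 with the higher floor, under which 3 of the genes were left. Cyclic loess moved none of the 37 list medians by more than 0.543, the SD between probe sets, and reversed none. The cause of these changes was not tested. No paired analysis was possible because each group has 1 array and the labels carry no replicate numbers. The number of arrays and the closeness of weak signals to background limit all folds here.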

Other observations

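Families were grouped by symbol after their values were seen, so their counts are descriptions. Semaphorins and their plexin receptors, cell guidance proteins that also act on leukocytes, had 5 of 19 genes above the floor at least 2-fold higher in wild-type MDP and 0 lower. Sema4d read 6.46 on wild-type GMP and 7.58 on wild-type MDP, Sema4b 5.05 and 6.41, and Plxnc1 4.54 and 5.57. Plxnc1 and Sema4d were higher in the Trib1-/- pair too, at 4.39 and 6.71, and 6.34 and 8.06. Cytosolic aminoacyl-tRNA synthetases, which charge tRNAs for translation, had 10 of 18 lower, against 12.4% of all genes, and 0 higher, with a median of -1.18. Among the lower ones were Eprs at 6.80 and 5.01 and Hars at 7.43 and 5.62. Against the Trib1-/- GMP array 2 of the 18 were lower, where 4.92% of all genes were, and the median was -0.73.

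The Ms4a membrane protein family lay on both sides. Of 9 genes above the floor Ms4a3 and Ms4a2 were at least 2-fold lower, and Ms4a6b, Ms4a6c and Ms4a4c at least 2-fold higher. Among all genes 12.4% were lower and 4.16% higher. These 5 Ms4a genes were apart in the same direction in the Trib1-/- pair. Ms4a4c read 3.05 and 4.18 in wild type and 2.38 and 4.38 in Trib1-/-. Of the D-type cyclins, which start the cell cycle, Ccnd1 read 4.28 and 6.52, and 4.91 and 6.32 in the Trib1-/- pair. Ccnd2 read 8.29 and 7.66 and Ccnd3 4.30 and 4.22 in wild type, so the higher value was that of Ccnd1 alone among the 3 in wild type. The other Ccnd1 probe sets differed by 0.48 and 1.12.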
